A study of Mus musculus with 8 samples.

Results

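The clustered protocadherin genes were examined in mouse embryonic stem cells depleted of the SUMO-conjugating enzyme Ubc9 or lacking 3 linker histones. The members were all gene symbols of the count tables that name a gene of the alpha (Pcdha), beta (Pcdhb) or gamma (Pcdhga, Pcdhgb, Pcdhgc) cluster. There were 58 of them among 24421 genes, with 14 in the alpha cluster, 22 in the beta cluster and 22 in the gamma cluster. They were chosen by name and not by any measured value.

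Clustered protocadherins are cadherin-like adhesion proteins that bind their own kind across cell contacts and give a neuron a surface identity by which it tells its own branches from those of others. Each alpha or gamma transcript starts at the promoter of its own large variable exon, which encodes the extracellular part, and is spliced to a short set of constant exons shared by the whole cluster. Beta genes are single large exons. In neurons a few promoters are picked at random per cell, with CTCF and cohesin looping the picked promoter to a distant enhancer, while DNA methylation, Smchd1 and Setdb1 keep other promoters silent. The C-type genes at the end of the alpha and gamma clusters are less subject to this random choice.

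RNA selected on polyA beads was sequenced from 8 libraries, 2 in each of 4 groups, all grown in 2i/LIF, a medium of naive pluripotency, for between 3 and 4 passages. Doxycycline was given to Ubc9-depleted v6.5 cells for 72 hours, and v6.5 cells labelled as Ubc9 wild type were their controls. The labels give neither the construct that doxycycline switches nor whether the controls received the drug. H1 TKO cells lack H1.2, H1.3 and H1.4 (genes Hist1h1c, Hist1h1d and Hist1h1e) and were set against wild-type cells; per the labels, both were taken from a previous publication. The Ubc9 libraries come from the ScriptSeq v2 kit and the H1 libraries from the Lexogen SENSE V2 kit, so line and kit cannot be told apart between the comparisons. Whether the 2 libraries of a group are separate cultures is not in the labels, so p-values measure only the spread between these libraries, which may be technical.

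Library totals ran from 44441713 to 102780141 counts, at which 3 counts correspond to between 0.03 and 0.0685 CPM (library-size-scaled counts, with TMM factors). Log2 fold changes are given ± SE, and every adjusted p here is edgeR's quasi-likelihood p after Benjamini-Hochberg adjustment over all genes tested, unless DESeq2 is named. Hist1h1c, Hist1h1d and Hist1h1e had 0 counts in both H1 TKO libraries, against 100 to 231 counts in the H1 controls. Among 10 embryonic stem cell markers 1 was higher and 1 lower in Ubc9-depleted cells, and 1 was higher in H1 TKO cells. At an adjusted p under 0.05, 36.0% of all genes tested changed in Ubc9-depleted cells and 17.0% in H1 TKO cells. In Ubc9-depleted library 1, which stands apart from library 2, 23462 genes had a count, while the remaining Ubc9 libraries had counts on 18584 to 19591 genes. The 2 libraries of the H1 control differed by a median chi-square per gene of 43.3, those of the Ubc9-depleted group by 15 and the other pairs by 4.45 and 5.06, while the lowest Spearman correlation was that of the Ubc9-depleted pair (0.97, against 0.974 to 0.985 in the other groups). In such bulk samples fewer cells that express a gene and less RNA per cell cannot be told apart.

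All 58 members lie on the plus strand of chromosome 18 (GRCm38, GENCODE M21). The alpha genes span 36930184 to 37187661, the beta genes 37264938 to 37524479 and the gamma genes 37661793 to 37841873. An alpha gene has a variable exon of 2494 bases in the median and a gamma gene one of 2607.5 bases. All 14 alpha and all 22 gamma genes of the annotation share their constant exons, so a count on one of them can be told from its cluster mates only through the variable exon. Gamma members with as few as 1 count in a library where a cluster mate had 863 show that shared-exon reads were not given to every member. Pcdha4, Pcdha6 and Pcdha7 had 0 counts in all 8 libraries, and long genes of the annotation that run from the alpha into the gamma cluster cover 2410 of the 2503 bases of the Pcdha4 variable exon, 222 of 2507 in Pcdha6 and 338 of 2477 in Pcdha7. These 3 genes are uncertain. Up to 23.4% of the 50-base stretches of an alpha variable exon recur in another member (Pcdha7). Among gamma genes the share was 0% for Pcdhga1 and Pcdhga11 and up to 17.9% (Pcdhgb2). Antisense genes overlap 8 gamma members, among them Pcdhga1, Pcdhga11 and Pcdhgc3. Whether counting used strand is not given in the sources used here, so reads of such pairs cannot be told apart.

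The gamma cluster was the expressed one. It carried 87.7% of the clustered counts in Ubc9-depleted library 1, 98.4% in library 2, 99.2% and 99.4% in the Ubc9 controls, and 98.4% to 99.9% in the H1 libraries. All 22 gamma members had counts in every library. Pcdhgc3, a C-type gene whose product is known to dampen Wnt signalling through Axin1, had the highest level per kilobase of variable exon in all 4 groups, at 11.4 CPM per kb in Ubc9-depleted and 10.2 in Ubc9 control cells, and 5.79 in H1 TKO and 6.59 in H1 control cells. Pcdhga1, the first gene of the cluster, ranked next in all 4 groups, at 4.92 and 2.10 CPM per kb in Ubc9-depleted and Ubc9 control cells, and 1.21 and 2.00 in H1 TKO and H1 control cells. At the low end, Pcdhga6 averaged 0.159 CPM per kb in Ubc9-depleted and 0.0576 in Ubc9 control cells, and Pcdhgb6 averaged 0.0831 in H1 TKO and 0.0669 in H1 control cells.

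**Figure D1:**
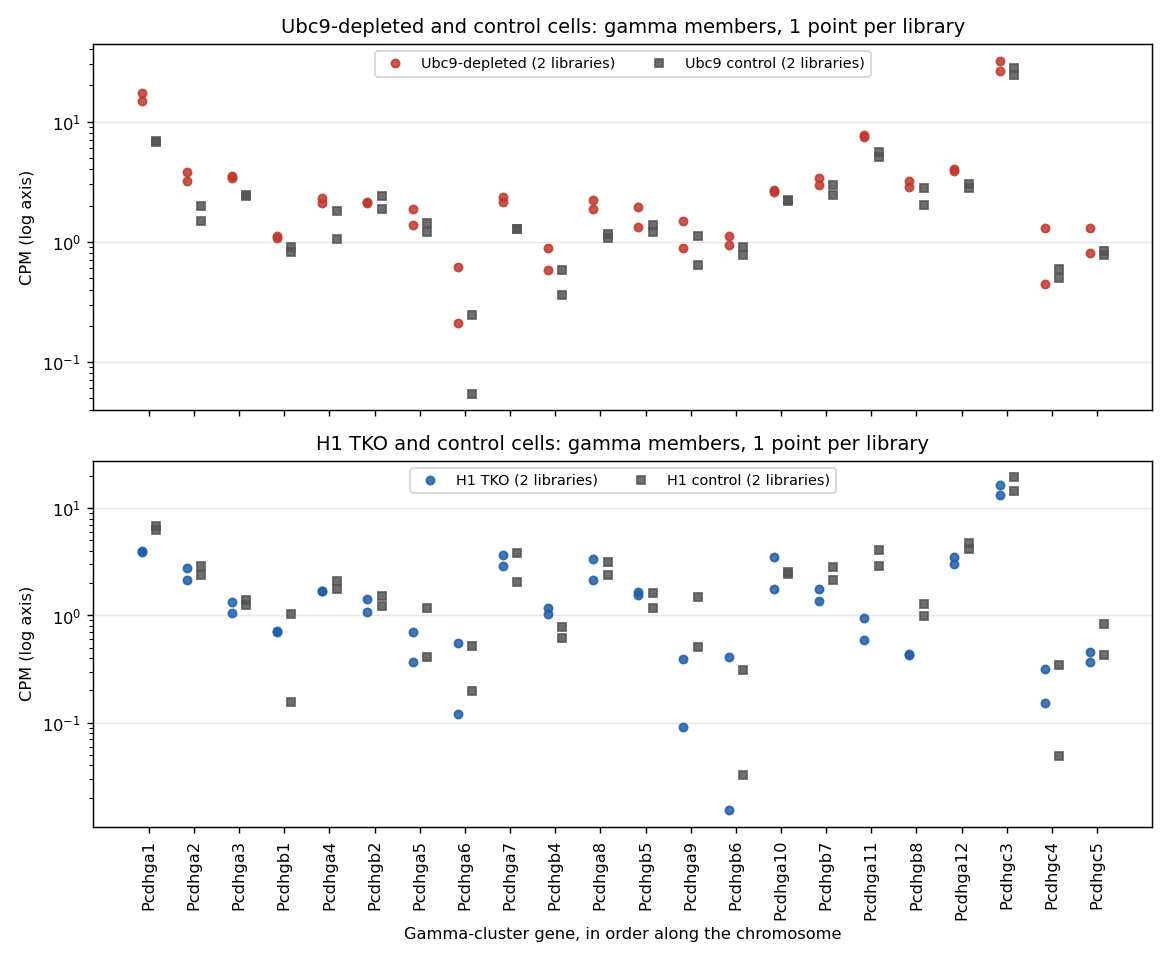
CPM of each gamma member in each library (log axis), in order along the chromosome, with Ubc9-depleted or H1 TKO libraries left of their controls. Pcdhgc3 is highest throughout. Pcdhga1 lies at 14.8 and 17.2 CPM in Ubc9-depleted cells, above both controls, and Pcdhga11 lies below both controls in H1 TKO cells.

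The first comparison asks what changes when SUMO conjugation is impaired. Gamma expression was moderately higher in Ubc9-depleted cells, and Pcdhga1 changed most clearly. Summed over the cluster it was 87.8 and 94.0 CPM in Ubc9-depleted cells, against 68.0 and 63.8 CPM in Ubc9 controls. The ratio of the means was 1.38, with a spread of 0.0911 propagated from the library SDs. The 4 libraries do not overlap. Without Pcdhga1, a choice made after seeing the data, the sums were 73.1 and 76.8 CPM in Ubc9-depleted cells, against 61.3 and 56.8 CPM in controls (ratio 1.27).

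All 22 gamma members passed the filter on low counts. Of them 3 rose and 0 fell after Ubc9 depletion, at a threshold of 0.05 on the adjusted p, where 21.1% of all 16499 genes tested rose, 15.0% fell and 36.0% did either. At an unadjusted p under 0.05, 3 were higher and 0 lower, and DESeq2 also called 0 lower. The 3 gamma genes that rose are 13.6% of the 22. With library totals in place of TMM factors 24.1% of all genes rose and 6.57% fell. Among the gamma genes 21 had a positive and 1 a negative log2 fold change, with a median of 0.44, against 0.06 over all genes tested. In 13 gamma genes both Ubc9-depleted libraries were above both controls and in 0 below, where 36.7% of all genes tested lay above and 32.2% below. With library totals the median of all genes was 0.25. By type, 3 of 12 A-type, 0 of 7 B-type and 0 of 3 C-type gamma genes rose, with medians of 0.56, 0.32 and 0.39.

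Pcdhga1 (variable exon at chromosome 18, 37661793 to 37665039) had 14.8 and 17.2 CPM in Ubc9-depleted cells, against 6.73 and 6.93 CPM in Ubc9 controls. Each Ubc9-depleted library was more than 2-fold above each control. The log2 fold change was 1.23 ± 0.12 (adjusted p = 5e-09), and it passed in every alternative run, with adjusted p from 6.1e-18 to 0.0023. Its share of all gamma counts was 16.8% and 18.3% in Ubc9-depleted cells, against 9.9% and 10.9% in Ubc9 controls.

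Pcdhga2, the next gene along the cluster (variable exon 37668953 to 37671525), had 3.20 and 3.80 CPM in Ubc9-depleted cells, against 1.48 and 1.99 CPM in Ubc9 controls. The groups do not overlap, and it rose with a log2 fold change of 1.01 ± 0.31 (adjusted p = 0.013). The call was lost without Ubc9 control library 1 (adjusted p = 0.46) or 2 (0.23), in DESeq2 (0.087) and in the fit of all 8 libraries (0.086). Pcdhga11 (variable exon 37755731 to 37758367) had 7.45 and 7.73 CPM in Ubc9-depleted cells, against 5.60 and 5.08 CPM in controls. Again the groups do not overlap, but the difference was smaller, at a log2 fold change of 0.51 ± 0.16 (adjusted p = 0.013). It did not pass without Ubc9 control library 1 (adjusted p = 0.19) or 2 (0.42), in DESeq2 (0.22) or in the fit of all 8 libraries (0.27). Its share of gamma counts was 8.48% and 8.22% in Ubc9-depleted cells, against 8.24% and 7.97% in controls.

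The C-type genes did not pass the test. Pcdhgc3 had 26.5 and 32.2 CPM in Ubc9-depleted cells, against 27.7 and 24.6 CPM in Ubc9 controls, and the groups overlap (log2 fold change 0.16 ± 0.12, adjusted p = 0.27). With scaling by library totals alone its value was 0.35 with adjusted p = 0.033, and without Ubc9-depleted library 2 it was -0.06. Its share of gamma counts was 30.2% and 34.3% in Ubc9-depleted cells, against 40.8% and 38.5% in controls. Pcdhgc4, which interneurons of the mouse need to survive after birth, had a log2 fold change of 0.68 ± 0.72, and Pcdhgc5, whose product binds a GABA receptor subunit, one of 0.39 ± 0.62. Both turned below 0 without Ubc9-depleted library 1, and without library 2 the value of Pcdhgc4 was 1.18.

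**Figure D2:**
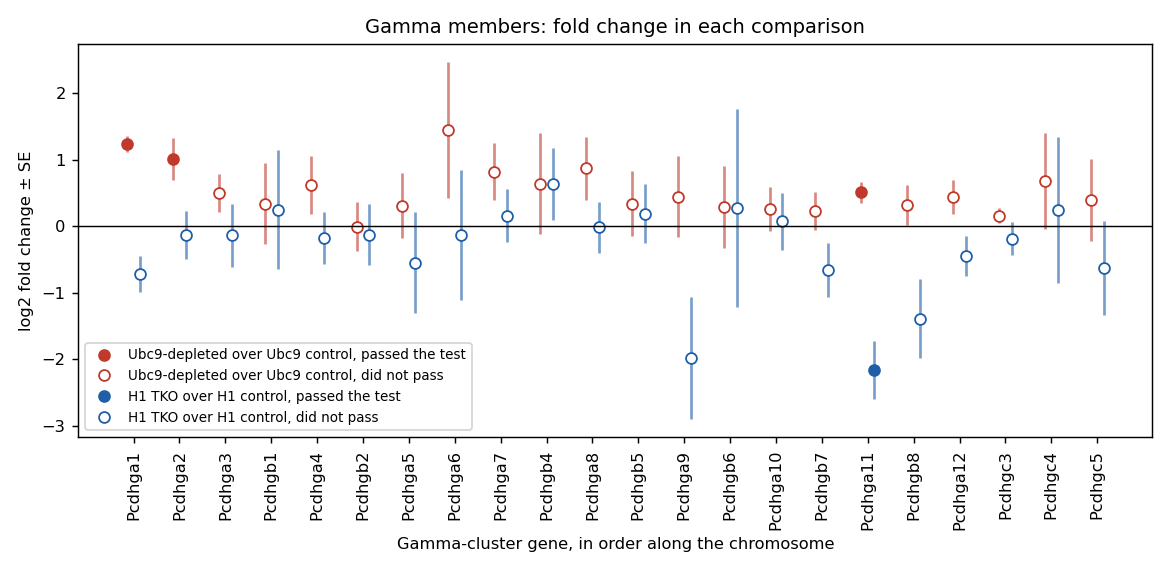
Log2 fold change with its SE for each gamma member, in order along the chromosome, for Ubc9-depleted over control cells (red) and H1 TKO over control cells (blue). Filled points passed the test at an adjusted p under 0.05. Pcdhga1, Pcdhga2 and Pcdhga11 passed in the Ubc9 comparison and Pcdhga11 in the H1 comparison, with the opposite sign.

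Fibroblast markers were mostly higher in this comparison. Of 11 markers 8 rose and 0 fell, where 21.1% of all genes tested rose and 15.0% fell. The summed marker level was 45.8 to 53.5 CPM in Ubc9-depleted cells and 21.7 to 22.8 CPM in Ubc9 controls, and no marker was at 0. The neuron markers were mixed, with 4 higher and 1 lower of 9 tested (summed level 230 to 246 CPM in Ubc9-depleted cells, 199 to 210 CPM in controls), and Dcx was at 0 in both controls. Of 4 neural progenitor markers tested 0 passed in either direction (edgeR), at 71.2 to 73.1 CPM in Ubc9-depleted cells and 71.1 to 78.1 CPM in controls. The part of these cell types in the gamma difference was not tested.

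The alpha and beta clusters were near 0 in the Ubc9 controls and carried more counts in Ubc9-depleted cells, by an amount that differed several-fold between the 2 depleted libraries. The alpha sum was 3.62 and 0.877 CPM in Ubc9-depleted cells (362 and 67 counts), against 0.226 and 0.163 CPM in Ubc9 controls (22 and 15 counts). The beta sum was 8.73 and 0.629 CPM in Ubc9-depleted cells (874 and 48 counts), against 0.288 and 0.217 CPM in controls (28 and 20 counts). Both depleted libraries are above both controls in each cluster. The ratio of means was 11.5 for alpha and 18.5 for beta, falling to 4.51 and 2.49 without Ubc9-depleted library 1.

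**Figure D3:**
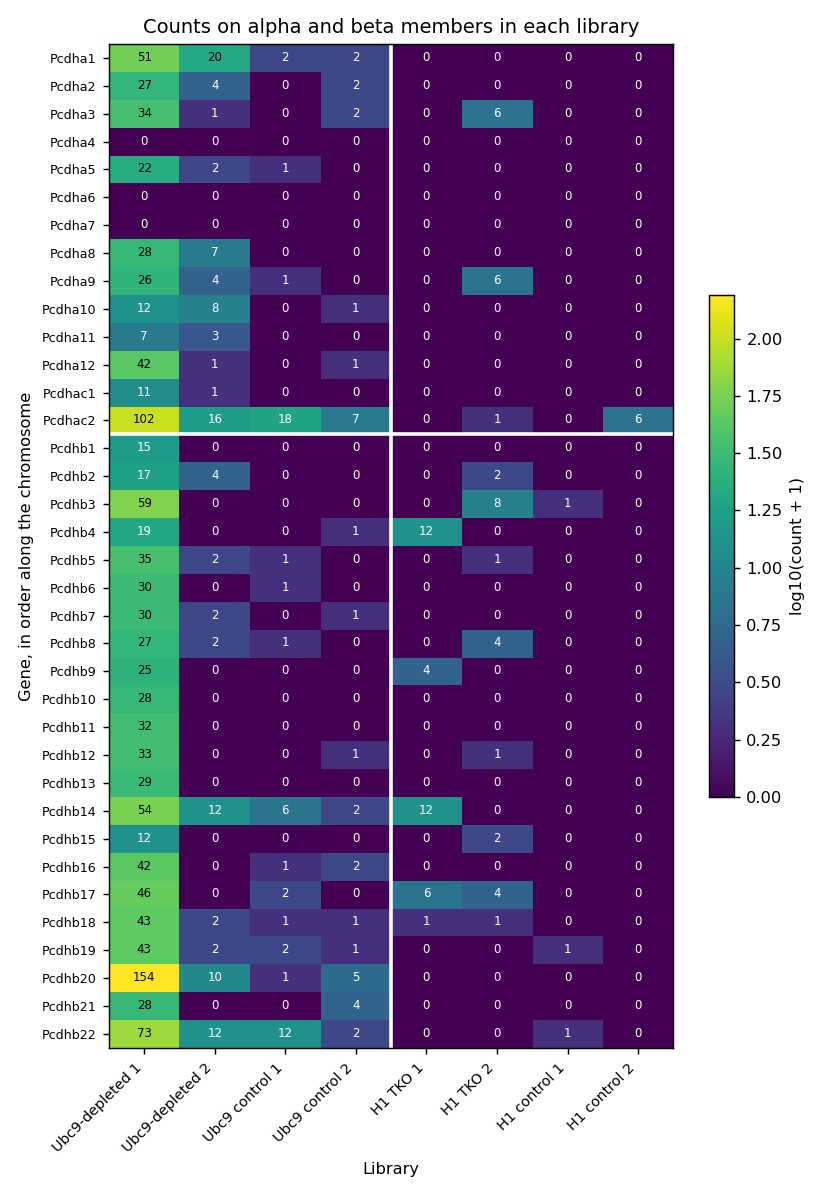
Counts on the 14 alpha and 22 beta members in each of the 8 libraries, coloured by log10(count + 1), with alpha above the white line. In Ubc9-depleted library 1 all 22 beta genes hold at least 12 counts and Pcdhb20 holds 154, while most entries of the other 7 libraries are at 0 to 6.

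Counts in Ubc9-depleted library 1 were spread over the clusters. All 22 beta genes had between 12 and 154 counts there, against 9 beta genes with any count in library 2. Of the alpha genes 11 had counts in both depleted libraries, and the other 3 were the uncertain Pcdha4, Pcdha6 and Pcdha7. The olfactory and vomeronasal receptors, known as the odorant and pheromone receptors of sensory neurons in the nose, were also highest in Ubc9-depleted library 1, lower in library 2 and lowest in both controls. The summed olfactory receptor level was 118 and 24.6 CPM in Ubc9-depleted cells, against 8.91 and 7.32 CPM in controls (ratio 8.78, or 3.03 without Ubc9-depleted library 1). Vomeronasal receptors had 40.0 and 8.83 CPM in Ubc9-depleted cells, against 3.63 and 3.65 CPM in controls (ratio 6.71, or 2.42 without that library). Between Ubc9-depleted libraries 1 and 2 the ratio was 4.12 for alpha, 13.9 for beta, 4.79 for olfactory and 4.53 for vomeronasal receptors, against 0.934 for gamma. Per coding kb, beta genes were at 0.166 and 0.012 CPM in Ubc9-depleted cells, against 0.00549 and 0.00414 CPM in controls. Olfactory receptors were at 0.115 and 0.024 CPM per coding kb in Ubc9-depleted cells, against 0.00867 and 0.00713 in controls. On this scale beta genes were above them in Ubc9-depleted library 1 and below them in the other 3 libraries. Per exon kb, beta genes were at 0.0951 and 0.00685 CPM in Ubc9-depleted cells, against 0.00314 and 0.00237 in controls. Olfactory receptors were then at 0.0341 and 0.00712 CPM, against 0.00258 and 0.00212, so beta genes were below them only in Ubc9-depleted library 2. What set the signal of Ubc9-depleted library 1 was not tested.

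**Figure D4:**
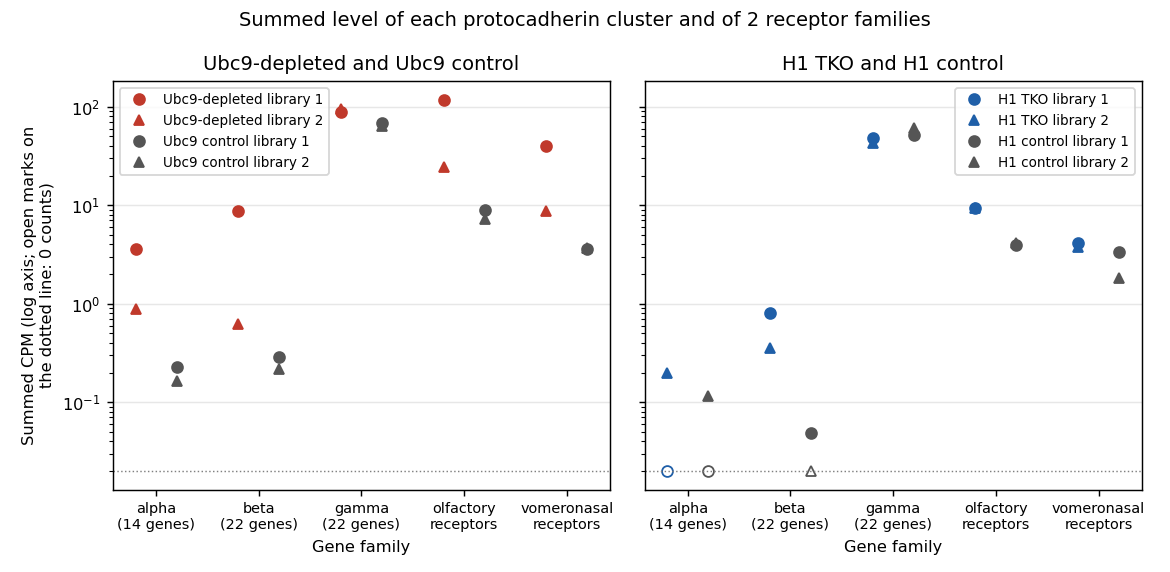
Summed CPM (log axis) of the alpha, beta and gamma clusters and of the olfactory and vomeronasal receptor families in each library, with open marks on the dotted line for libraries at 0 counts. The gamma sums lie close together. The alpha, beta and receptor sums are high in Ubc9-depleted library 1 and several-fold lower in library 2, which lies above both controls.

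Of the 36 alpha and beta genes 5 were tested in the Ubc9 comparison, and because their controls are near 0 they passed the filter through the depleted libraries and could only be called higher. Pcdha1, the first alpha gene (variable exon 36930184 to 36932672), had 51 and 20 counts in Ubc9-depleted cells, against 2 and 2 counts in controls. Both depleted libraries are far above both controls, and it rose with a log2 fold change of 4.11 ± 1.25 (adjusted p = 0.012). It passed without either depleted library (3.54 and 4.43), but not without Ubc9 control library 1 (adjusted p = 0.58) or 2 (0.61), with no filter on low counts (0.12) or in the fit of all 8 libraries (0.11). Pcdhb20 had 154 and 10 counts in Ubc9-depleted cells, against 1 and 5 counts in controls, and rose by 4.65 ± 1.18 on the log2 scale (adjusted p = 0.0028). It did not pass without Ubc9-depleted library 1 (1.99, adjusted p = 0.18) or without Ubc9 control library 1 (0.28) or 2 (0.11). Pcdhb14 had 54 and 12 counts in Ubc9-depleted cells, against 6 and 2 counts in controls, and just passed at 3.02 ± 1.20 (adjusted p = 0.049), but not without Ubc9-depleted library 1 (1.86, adjusted p = 0.16), Ubc9 control library 1 (0.63) or 2 (0.75). It also did not pass in DESeq2 (0.15), with library totals (0.063), with no filter (0.26), in the fit of all 8 libraries (0.29) or with the replicate number as a block (0.066).

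The other tested members of these clusters did not pass. Pcdhac2, a C-type gene that serotonergic neurons of the mouse need to tile their axons, had 102 and 16 counts in Ubc9-depleted cells, against 18 and 7 counts in controls (log2 fold change 2.22 ± 0.99, adjusted p = 0.077). Scaled by library size the groups do not overlap, but depleted library 2 (0.21 CPM) was close to control library 1 (0.185 CPM), and without depleted library 1 the value was 0.66. Without depleted library 2 the value was 2.86. Pcdhb22 had 73 and 12 counts in Ubc9-depleted cells, against 12 and 2 counts in controls (2.59 ± 1.12, adjusted p = 0.07). Pcdha3, among the 3 highest alpha genes by CPM over all 8 libraries but behind Pcdhac2, Pcdha1, Pcdha12 and Pcdha8 in Ubc9-depleted cells, had 34 and 1 counts in Ubc9-depleted cells, against 0 and 2 in controls. Pcdhac1 had 11 and 1 counts in Ubc9-depleted cells, against 0 and 0 in controls. Leaving out Ubc9-depleted library 2 raised the members tested to 51, with a median log2 fold change of 3.56, against 0.25 over all genes. Most alpha and beta genes among them passed the filter only through depleted library 1. With controls near 0 they could only be called higher, so the calls of that fit cannot show a response of these genes. Leaving out Ubc9-depleted library 1 left 27 members tested, with a median of 0.45, against -0.01 over all genes. Without Ubc9 control library 1 or 2, 1 of 52 was called, Pcdhga1, where 6.43% and 6.09% of all genes were.

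The second comparison asks what the loss of H1.2, H1.3 and H1.4 changes. Gamma expression was slightly lower in H1 TKO cells and Pcdhga11 was the member that fell. The gamma sum was 48.3 and 42.6 CPM in H1 TKO cells, against 51.4 and 61.2 CPM in H1 controls (ratio 0.807, propagated spread 0.122). Both H1 TKO libraries are below both controls, though by little in library 1. All 22 gamma members and 0 alpha or beta members passed the filter. Of the 22, 1 fell and 0 rose, which is 4.55%, where 8.43% of the 14800 genes tested fell, 8.59% rose and 17.0% did either. None was higher at an unadjusted p under 0.05 (edgeR) or in DESeq2. The median log2 fold change was -0.14, against -0.02 over all genes tested, with 7 genes above 0 and 15 below. In 7 gamma genes both H1 TKO libraries were below both controls and in 1 above, where 30.6% of all genes lay below and 31.4% above.

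Pcdhga11 had 0.594 and 0.946 CPM in H1 TKO cells (26 and 62 counts), against 2.91 and 4.05 CPM in H1 controls (177 and 209 counts). Both H1 TKO libraries are far below both controls, and it fell with a log2 fold change of -2.16 ± 0.44 (adjusted p = 0.017). Its adjusted p was between 0.00027 and 0.017 across scalings, tools, filters and the replicate block, and 0.065 without H1 TKO library 1 (value -1.89). Its share of gamma counts was 1.23% and 2.22% in H1 TKO cells, against 5.65% and 6.63% in H1 controls.

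Pcdhga1 had 4.00 and 3.87 CPM in H1 TKO cells, against 6.21 and 6.79 CPM in H1 controls. The groups do not overlap, but it did not pass (log2 fold change -0.72 ± 0.27, adjusted p = 0.11). Without H1 control library 1 or 2 its adjusted p was 0.0091 and 0.033, and it was 0.017 in the fit of all 8 libraries. The other gamma genes with both H1 TKO libraries below both controls were Pcdhga4, Pcdhga9, Pcdhgb7, Pcdhgb8 and Pcdhga12. None of them passed, and 7 such genes of 22 is near the 30.6% of all genes tested that lay below. Pcdhga9 had a log2 fold change of -1.98 ± 0.92 (adjusted p = 0.19) and Pcdhgb8, the gene after Pcdhga11, one of -1.39 ± 0.59 (adjusted p = 0.15). Pcdhgb4 was the gene above both controls, at 0.64 ± 0.54. Pcdhgc3 had 16.6 and 13.2 CPM in H1 TKO cells, against 14.4 and 19.4 CPM in H1 controls, and the groups overlap (-0.19 ± 0.25, adjusted p = 0.66, or -0.38 with adjusted p = 0.035 without H1 control library 1). Pcdhgc4 and Pcdhgc5 had log2 fold changes of 0.24 ± 1.10 and -0.63 ± 0.71, and Pcdhga2 one of -0.13 ± 0.36. Without H1 TKO library 1, 0 members were called, against 1 without H1 TKO library 2, 4 without H1 control library 1 and 2 without H1 control library 2, all lower. Of all genes 3.45%, 3.19%, 22.8% and 26.1% were called lower in these fits, in the same order.

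**Figure D5:**
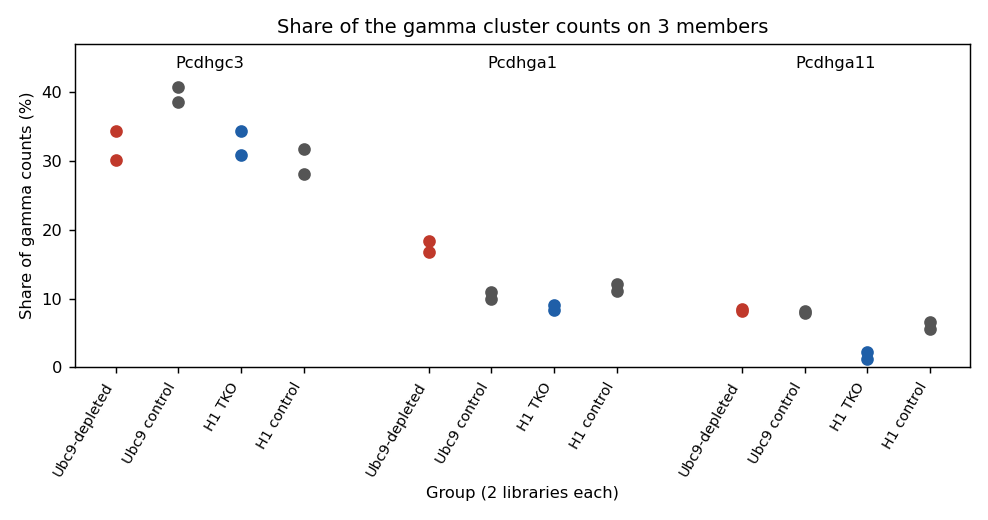
Share of all gamma counts (percent) on Pcdhgc3, Pcdhga1 and Pcdhga11 in each library, with Ubc9-depleted left of Ubc9 control and H1 TKO left of H1 control. The Pcdhga1 share is 16.8% and 18.3% in Ubc9-depleted cells, and 8.28% to 12.1% in the H1 libraries. The Pcdhga11 share is 1.23% and 2.22% in H1 TKO cells.

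Alpha and beta genes were barely counted in the H1 libraries. The beta sum was 35 and 23 counts in H1 TKO cells, against 3 and 0 counts in H1 controls. The pooled ratio, scaled by library size, was 19.9, with a 95% counting interval of 6.47 to 99.2 that covers counting error only, since reads without molecular identifiers are not independent molecules. In H1 TKO cells 11 beta genes had a count, and Pcdhb17 (6 and 4 counts) and Pcdhb18 (1 and 1) were the ones with counts in both libraries. The largest single values, 12 counts each on Pcdhb4 and Pcdhb14 in library 1 and 8 on Pcdhb3 in library 2, stood against 0 in the partner library. Olfactory receptors were at 9.36 and 9.39 CPM in H1 TKO cells, against 3.94 and 4.11 CPM in H1 controls (ratio 2.33). The alpha sum was 0 and 13 counts in H1 TKO cells, against 0 and 6 counts in H1 controls, a difference not detectable at this depth. Fibroblast markers summed to 17.7 to 19.0 CPM in H1 TKO cells and 17.6 to 24.9 CPM in H1 controls, with 1 higher and 1 lower of 5 tested. Neuron markers summed to 415 to 441 CPM in H1 TKO cells and 295 to 371 CPM in H1 controls. Of 8 tested 2 were higher and 3 lower, where 8.59% of all genes tested were higher and 8.43% lower. The part of fibroblasts and neurons in these values was not tested.

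Whether a gene responded differently in the 2 comparisons was tested as an interaction in 1 fit of all 8 libraries, in which line and kit go with the comparison. Of 27 members tested 2 passed, both more positive in the Ubc9 comparison, where 8.08% of all 16974 genes tested were more positive and 6.43% more negative (11.3% and 3.74% with library totals). Pcdhga1 differed by 1.93 ± 0.26 on the log2 scale (adjusted p = 0.00079) and Pcdhga11 by 2.63 ± 0.41 (adjusted p = 0.002). Both passed with each library left out and under every other setting run, and without H1 control library 1 Pcdhga9 and Pcdhgb8 passed as well, making 4. Without H1 control library 2 Pcdhga2 passed as well (1.27, adjusted p = 0.046). The next in order of p were Pcdhgb8 (1.69 ± 0.57, adjusted p = 0.076) and Pcdhga12 (0.87 ± 0.36, adjusted p = 0.13). Pcdhgc3 differed by 0.33 ± 0.28 and did not pass.

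Among 24 known or proposed regulators of the clusters, 3 rose and 7 fell in Ubc9-depleted cells, where 36.0% of all genes did either. The median log2 fold change was -0.17, against 0.06 over all genes. With scaling by library totals 4 rose and 3 fell, and the median was 0.01. Dnmt3l, a cofactor of de novo DNA methylation, rose by 1.57 ± 0.12 (88.5 and 107 CPM in Ubc9-depleted cells, against 32.1 and 33.9 CPM in controls). Atf7ip, a partner of Setdb1, rose by 0.69 ± 0.13, Uhrf1, which guides maintenance methylation, fell by 0.83 ± 0.13, and Wapal (now Wapl), which releases cohesin from DNA, fell by 0.58 ± 0.13 on the log2 scale. Ctcf averaged 203 ± 5.25 CPM in Ubc9-depleted cells and 256 ± 13.3 CPM in controls (SD, n = 2 libraries each). Its log2 fold change was -0.33 ± 0.13, and it passed narrowly (adjusted p = 0.038). Smchd1 had a log2 fold change of -0.28 ± 0.12 and did not pass (adjusted p = 0.079). The number of regulators called changed with a library left out, as it did over all genes. The median was -0.13 and -0.38 without Ubc9-depleted library 1 or 2, and -0.16 and -0.23 without Ubc9 control library 1 or 2.

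In H1 TKO cells 3 regulators rose and 2 fell of 24, where 17.0% of all genes did either, with a median of -0.32. With library totals 3 rose and 1 fell. Dnmt3l rose by 2.64 ± 0.25 (126 and 134 CPM in H1 TKO cells, against 16.9 and 24.8 CPM in H1 controls). Dnmt3b, the methyltransferase that marks these promoters in the embryo, rose by 0.87 ± 0.20, and Setdb1 by 0.69 ± 0.18 (adjusted p = 0.042). Dnmt3a fell by 1.15 ± 0.21 and Wapal by 1.22 ± 0.33 on the log2 scale. Wapal passed narrowly (adjusted p = 0.046), at 64.5 and 63.3 CPM in H1 TKO cells, against 202 and 96.7 CPM in H1 controls. The number of regulators called changed with a library left out, as it did over all genes. The median was -0.43 and -0.26 without H1 TKO library 1 or 2, and 0.05 and -0.47 without H1 control library 1 or 2.

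Of the signalling partners of the proteins, 21 were tested in each comparison. In Ubc9-depleted cells 4 rose and 1 fell, where 36.0% of all genes tested did either. The median was -0.12, against 0.06 over all genes, or 0.07 with library totals, against 0.25. Ptk2b, the kinase Pyk2 that protocadherins hold in check, rose by 1.63 ± 0.19, the receptor kinase Ret, which phosphorylates them, by 1.62 ± 0.30, and the kinase Fyn by 0.78 ± 0.11 on the log2 scale. In H1 TKO cells 2 rose and 3 fell, where 17.0% of all genes tested did either. The median was -0.05, against -0.02 over all genes. Ret rose by 2.52 ± 0.38 and Ptk2b by 1.33 ± 0.27, while Marcks fell by 1.26 ± 0.27 and the synaptic adhesion gene Nlgn2 by 1.19 ± 0.25 on the log2 scale. The number of partners called changed with a library left out, as it did over all genes. Their median was then -0.17 to -0.03 in the Ubc9 comparison and -0.14 to -0.0 in the H1 comparison.

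The genes flanking the clusters were mixed. Of 22 tested, 3 rose and 2 fell in Ubc9-depleted cells, where 36.0% of all genes tested did either. The median was 0.07, against 0.06 over all genes. With library totals 6 rose and 1 fell. Taf7, a general transcription factor gene between the beta and gamma clusters, had a log2 fold change of -0.06 ± 0.13, and Diap1 (now Diaph1), the formin gene 1.7 kb beyond the gamma cluster, fell by 0.54 ± 0.13. Arap3, a GTPase regulator 130.8 kb downstream, had 137 and 10 counts in Ubc9-depleted cells, against 4 and 5 counts in controls (3.94 ± 1.11), and like the beta sum it was highest in Ubc9-depleted library 1. Dnd1, a germ cell RNA-binding protein 164 kb upstream of the alpha cluster, rose by 0.92 ± 0.31. Spry4, an inhibitor of receptor kinase signalling 744.4 kb downstream, rose by 2.08 ± 0.39 on the log2 scale. The number of flanking genes called changed with a library left out, as it did over all genes, and their median was then -0.06 to 0.07. In H1 TKO cells 17.0% of all genes tested rose or fell. Among the 22 flanking genes 1 rose there, Dnd1 (1.63 ± 0.36, 4.06 and 3.54 CPM in H1 TKO cells, against 1.25 and 1.20 CPM in H1 controls), and 0 fell. This number also changed with a library left out, as it did over all genes, and the median was then 0.05 to 0.19.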

How the data were processed

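Counts per gene were used as deposited by the authors, in one table of 24421 symbols per experiment. The submitters' processing notes name cutadapt, STAR, HTSeq, DESeq2 and the build mm10. Tool versions, the counting annotation and strand use: not given in the sources used here. All 58 members were matched to GENCODE M21 (GRCm38) for coordinates and exon lengths.

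R 4.3.3 and edgeR 4.0.16 were used to fit the 4 libraries of each comparison separately (filterByExpr with a minimum count of 10 and a minimum total of 15, TMM factors, quasi-likelihood F test), adjusted over all genes tested by Benjamini-Hochberg at 0.05. The interaction was fitted on all 8 libraries. SE values are the log2 fold change divided by the root of F. CPM uses TMM-scaled totals. Levels per kb use bases outside the shared constant exons. Cluster sums were not tested, and their spread combines the SDs of both groups.

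Alternatives were DESeq2 1.42.0, RLE factors, library totals, no filter, all 8 libraries in 1 fit, a replicate block, leaving out each library and sums without the highest member. A lone library was assumed to vary like the other group's pair. The gamma sum without Pcdhga1 was added after seeing the data. The fit was tested on simulated counts. Text names members called in either comparison or the interaction, the 3 highest members per cluster, C-type genes, the H1 genes and up to 4 called genes per list. Other genes named were chosen after their values were seen. Members and lists were chosen with earlier results of these data known. No sequence is printed, and results of some genes are not reported here.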

Additional observations from a re-analysis of the deposited data

Results flagged for a closer look

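Pcdhga1 and Pcdhga11 responded differently in the 2 comparisons by a test of the difference itself. They were the 2 that passed of 27 members tested, where 8.08% of all genes tested were more positive in the Ubc9 comparison. The Ubc9 effect minus the H1 effect was 1.93 ± 0.26 on the log2 scale for Pcdhga1 (adjusted p = 0.00079, edgeR quasi-likelihood test of the interaction). Pcdhga1 was higher in both Ubc9-depleted libraries than in both Ubc9 controls, and lower in both H1 TKO libraries than in both H1 controls. Of all genes tested 36.7% were above in the first sense and 30.6% below in the second. In the H1 comparison alone Pcdhga1 did not pass (edgeR adjusted p = 0.11). For Pcdhga11 the difference was 2.63 ± 0.41 (adjusted p = 0.002), again with no overlap between groups in either comparison. In the Ubc9 comparison alone Pcdhga11 did not pass in DESeq2 or in the fit of all 8 libraries. Line and library kit go with the comparison and cannot be told apart from it.

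The summed gamma level was higher in both Ubc9-depleted libraries than in both Ubc9 controls, with a ratio of 1.38 (propagated spread 0.0911). It was lower in both H1 TKO libraries than in both H1 controls, with a ratio of 0.807 (propagated spread 0.122). In H1 TKO library 1 it was lower by little, at 48.3 CPM against 51.4 CPM in H1 control library 1. The difference between these ratios was not tested.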

How the results depend on the processing

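With each library left out in turn, the members called ranged from 1 to 35 in the Ubc9 comparison, from 0 to 4 in the H1 comparison and from 2 to 4 in the interaction. Sum ratios then ranged from 4.51 to 18.6 (alpha), 2.49 to 34.5 (beta) and 1.33 to 1.43 (gamma) for Ubc9 depletion, and from 0.852 to 3.41 (alpha), 11.7 to 32.4 (beta) and 0.742 to 0.884 (gamma) for H1 TKO, where no ratio is given against a group left at 0. Calls ranged from 2 to 18 and 1 to 19 for regulators, 4 to 12 and 1 to 15 for partners, and 1 to 13 and 0 to 12 for flanking genes, in the Ubc9 and H1 comparisons. The fit of all 8 libraries called 1 member after Ubc9 depletion and 3 in H1 TKO cells, 3 and 8 regulators, and 1 and 3 flanking genes. Of all genes it called 9.33% and 25.7%. Without a filter 6 and 9 regulators and, in the H1 comparison, 4 flanking genes were called, where 23.9% and 18.8% of all genes were. DESeq2 also called 4 flanking genes in the H1 comparison, and 18.0% of all genes. The gamma ratio for Ubc9 depletion was 1.57 with library totals, 1.55 without Pcdhgc3 and 1.27 without Pcdhga1, and the alpha ratio was 25.5 without Pcdhac2. The highest median of the members in the Ubc9 comparison came without Ubc9-depleted library 2, where most alpha and beta genes entered the test through library 1. The cause of these shifts was not tested.

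Of the single-member values under the alternatives, 242 kept their direction and side of the threshold, 24 were no longer past it, 9 newly passed and 14 changed sign. With a library left out, the log2 fold change in the Ubc9 comparison ranged from -0.06 to 0.30 for Pcdhgc3, -0.28 to 1.18 for Pcdhgc4 and -0.01 to 0.63 for Pcdhgc5, and in the H1 comparison from -0.34 to 0.04 for Pcdhga2, -0.38 to 0.03 for Pcdhgc3 and -0.58 to 2.19 for Pcdhgc4. The interaction ranged from -0.59 to 7.35 for Pcdhac2, -4.49 to 2.95 for Pcdhb14 and -1.55 to 1.18 for Pcdhgc4.

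Same-numbered libraries share only a number, with correlations of their deviations of 0.00 and 0.16. With the replicate number as a block, 5 members were called in the Ubc9 comparison, 1 in the H1 comparison and 2 in the interaction. Of all genes 35.2%, 23.4% and 17.6% were called, in the same order. In the H1 comparison 9 regulators and 3 flanking genes were called, and the Pcdhgc4 interaction was -0.07. Depth limits the alpha and beta values of the H1 libraries, where 3 counts are 0.0458 to 0.0685 CPM.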
